A study of Homo sapiens with 6 samples.

Results

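The genes described here are those of epidermal growth factor (EGF) signalling at the cell surface: 5 ligands (AREG, EREG, HBEGF, TGFA and NRG1), 3 receptors of the ERBB family (EGFR, ERBB2 and ERBB3) and 2 membrane proteases that release the ligands (ADAM10 and ADAM17). They were taken by symbol from a table of 19937 genes, and each of the 10 matched 1 Ensembl identifier. Of these, 9 had a count in some library and 8 passed the filter on low counts. EREG and ERBB3 did not pass it.

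EGF-type ligands are made as membrane-anchored precursors, and a sheddase of the ADAM family cuts them free. AREG, HBEGF and TGFA bind EGFR, EREG binds EGFR and ERBB4, HBEGF also binds ERBB4, and NRG1 binds ERBB3 or ERBB4. A bound receptor pairs with another of the family, often ERBB2, which has no known ligand of its own, and the pair signals through the RAS-ERK and PI3K-Akt cascades to growth, migration and survival.

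U2OS cells, a human osteosarcoma line, were grown with 10% fetal bovine serum, infected with a lentivirus carrying a hairpin in the pGIPZ vector, and selected with 2 µg/mL puromycin for 2 weeks. The hairpin was directed against squalene epoxidase (SQLE), an enzyme of cholesterol synthesis, in 3 libraries (shSQLE, genotype SQLE-shRNA), and was a scrambled sequence in the other 3 (shControl, genotype scrambled-shRNA). Poly(A) RNA was read as pairs of 151 bp. Which SQLE hairpin was used is not given in the labels, and no second hairpin is among the libraries, so that loss of SQLE and other targets of the hairpin cannot be told apart. The labels do not say whether replicates were grown separately, and p-values measure only the spread between these libraries, which may be technical.

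Library totals ranged from 12212378 to 14393292 counts. The normalized count of SQLE itself fell from 1713 ± 317 to 217 ± 12.6 (SD, n = 3 each), to 12.7% of shControl (log2 fold change -2.98, standard error 0.17, adjusted p = 0.000299). Normalized counts are counts brought to the average effective size of the 6 libraries, and p-values are from edgeR's quasi-likelihood test, adjusted over the 12450 genes tested. Counts of shControl replicate 1 differed from those of the other controls with a chi-square per degree of freedom of 53.9 and 63.6, where sampling noise gives about 1, against 2.83 to 15.7 for the other pairs within a group. Where leaving out this library changed the call or direction of a member or pathway gene, or moved its value by over 1.5 times, both values are given. Without it, edgeR called 18.3% of all genes tested lower and 15.6% higher. Among osteoblast lineage markers, SPARC had at least 5000 counts in every library and was lower in every shSQLE library (log2 fold change -0.28, adjusted p = 0.185). COL1A1 fell to 63.5% of shControl (-0.65, adjusted p = 0.0452), while SP7 and IBSP had 0 in every library and ALPL at most 2. RUNX2 was at -0.29 (adjusted p = 0.516) and SPP1 at 0.19 (adjusted p = 0.748), both with overlapping groups, and COL1A2 and BGLAP had at most 6 and 5 counts. The summed normalized level of the 9 markers was 6738 to 6846 in shControl and 5532 to 5735 in shSQLE. Most of this sum was SPARC, with 6325 to 6359 in shControl and 5139 to 5388 in shSQLE. Among endothelial markers, the summed normalized level was 12.7 to 17.7 in shControl and 4.11 to 8.81 in shSQLE, with 9, 15 and 15 counts of PECAM1 in shControl against 4, 6 and 2 in shSQLE, while VWF and CDH5 had at most 2 counts in any library. Of the epithelial markers, KRT8 and KRT18 were abundant in both groups, EPCAM had 46 to 76 counts and was higher in every shSQLE library (0.40, adjusted p = 0.362), and CDH1, KRT19 and ESRP1 had at most 3 counts. The 5 mesenchymal markers had a summed level of 38480 to 44540 in shControl and 41847 to 47214 in shSQLE. Most of this sum was VIM, with 35613 to 42521 in shControl and 39743 to 45339 in shSQLE. VIM was at 0.17 (adjusted p = 0.589), and the other 4 were below 0. Of these, only S100A4 passed the test, and it fell to 34.98% of shControl (-1.50, adjusted p = 0.0295). CDH2 was at -0.48 (adjusted p = 0.215), ZEB1 at -0.22 and TWIST1 at -0.18. The part of these markers in the members' differences was not tested. The leukocyte gene PTPRC and the T and B cell genes CD3E and MS4A1 had 0 counts in every library, while the macrophage genes CD14 and CD68 had 1 to 6 and 3 to 11.

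Only 1 of the 8 members tested passed the adjusted p of 0.05. The ligand AREG fell (1 of 8 lower, where 2.84% of all genes tested were lower), and edgeR called 0 members higher (0.369% of all genes), against 1 at an unadjusted p under 0.05 and 1 by DESeq2, HBEGF in both. Either way, 3.21% of all genes passed. AREG passed the filter on low counts through its shControl libraries, the group where it was higher. The share of members called is thus a description. At an unadjusted p under 0.05 there were 3 members, AREG, HBEGF and EGFR, against 14.7% of all genes. The groups did not overlap in 3 members, against 22.1% of all genes. These were AREG and TGFA with all shSQLE libraries lower (12.1% of all genes) and HBEGF with all of them higher (10.0% of all genes). Over the 8 members the median log2 fold change was -0.25, with 6 below 0, whereas over all genes tested it was -0.01 with 51.6% below 0.

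**Figure D1:**
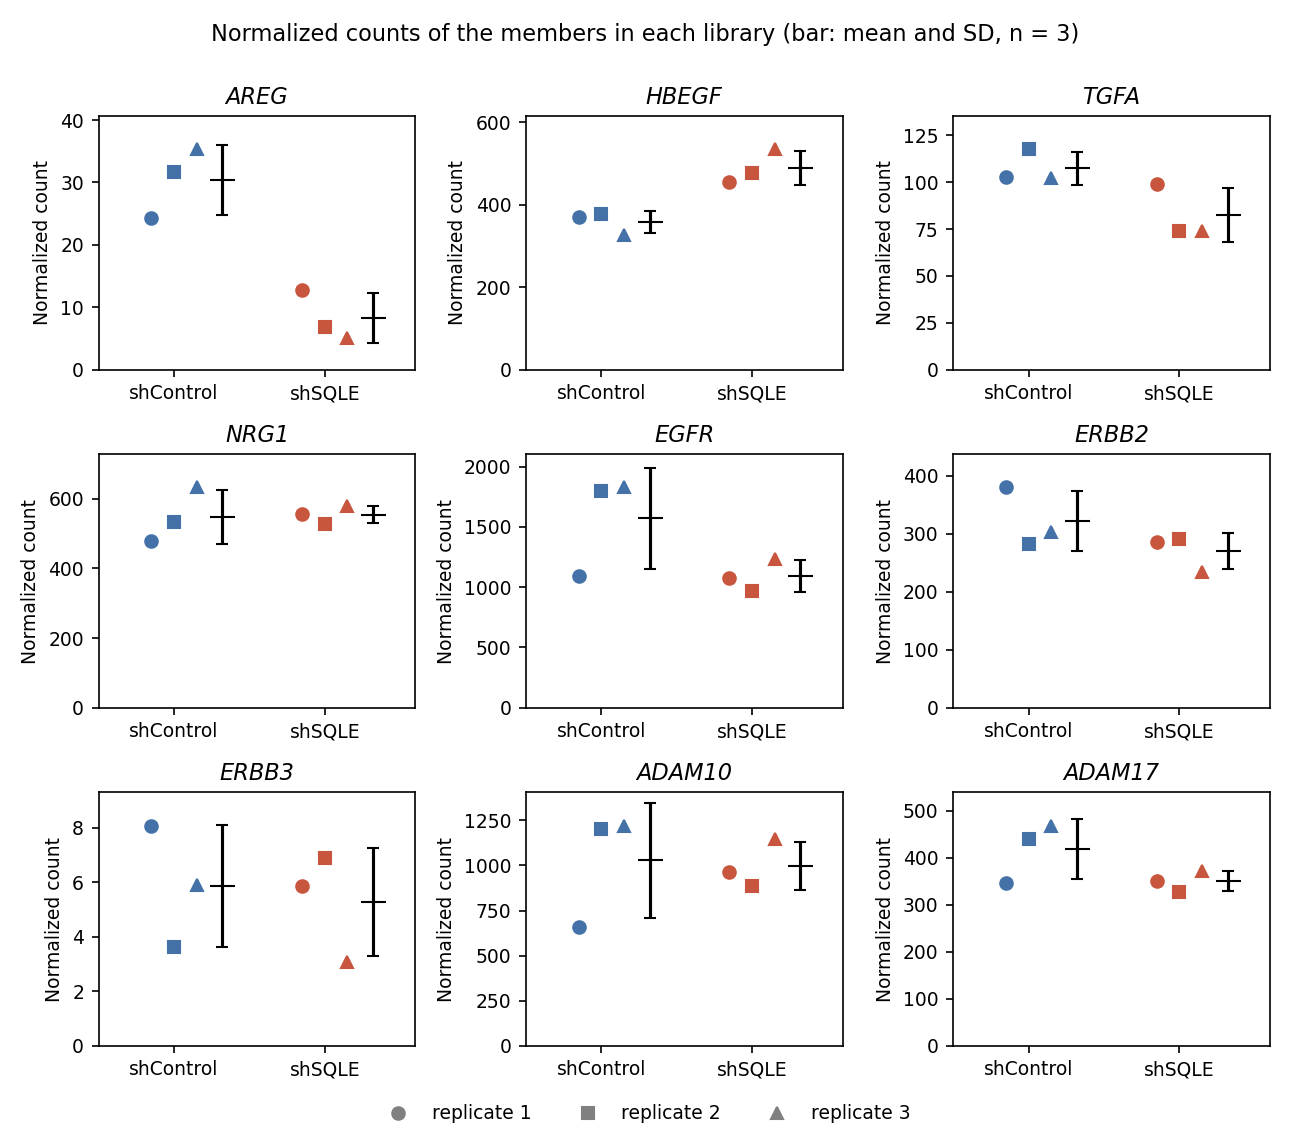
Normalized counts (vertical axes, from 0) of the 9 members with any count, for shControl (blue) and shSQLE (red). Marker shapes are the replicate numbers and the black bars give the mean and SD of 3 libraries. AREG, HBEGF and TGFA separate the groups, and shControl replicate 1 lies with the shSQLE libraries in EGFR and ADAM17 and below them in ADAM10.

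Amphiregulin (AREG, ENSG00000109321, chromosome 4, 74445136 to 74455005 on the + strand, 6 exons in the canonical transcript) was a low-abundance transcript in these cells. The shControl libraries held 21, 35 and 36 counts of it and the shSQLE libraries 13, 7 and 5, here and below in the order of replicates 1, 2 and 3. All shSQLE libraries lay below all shControl libraries. In normalized counts AREG fell from 30.4 ± 5.64 to 8.26 ± 3.97 (SD, n = 3 each), to 27.2% of the shControl mean. The log2 fold change was -1.87 (standard error 0.36, 95% confidence interval -2.70 to -1.03, adjusted p = 0.0348). An exact two-sided permutation test gave p = 0.1, and with 3 libraries a group this test cannot give a smaller value. The direction held in all 14 alternative fits that tested AREG, and the call in 9 of them. The call was lost whenever a library other than shControl replicate 1 was left out, the adjusted p reaching 0.179 without shSQLE replicate 2, while without shControl replicate 1 the log2 fold change was -1.99 (adjusted p = 0.00206). At 5 to 36 counts per library, counting error alone is a large part of the spread. AREG passed the filter on low counts through the shControl libraries, while shSQLE replicates 2 and 3 held 7 and 5 counts. With no filter it was called as well (-1.86, adjusted p = 0.0302).

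Epiregulin (EREG, ENSG00000124882, chromosome 4, 74365145 to 74388749, + strand) is the neighbour of AREG, with 56.4 kb between the end of EREG and the start of AREG. It had 0 counts in all 6 libraries. A count of 0 allows up to 3 counts per library, which is 0.208 to 0.246 CPM (the count scaled to a common library total) at these depths and covers counting error only. A difference in EREG between the groups was not detectable at this depth.

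Heparin-binding EGF-like growth factor (HBEGF, ENSG00000113070, chromosome 5, 140332843 to 140346603, - strand, 6 exons) was the most abundant of the ligands per length of transcript. It is made as a membrane protein that also serves as the diphtheria toxin receptor. Its normalized counts were 371, 377 and 328 in shControl against 455, 477 and 534 in shSQLE. Every shSQLE library lay above every shControl library, by a mean of 1.36-fold (358 ± 26.9 against 489 ± 40.9, SD, n = 3 each). The log2 fold change was 0.45 (standard error 0.13, 95% confidence interval 0.15 to 0.74), and the adjusted p of 0.134 missed the threshold. DESeq2 called it (adjusted p = 0.0472), as did the fit without shControl replicate 1 (0.47, adjusted p = 0.0075) and the fit after removal of the trend on GC content and length (0.42, adjusted p = 0.0206). It was above 0 in all 15 alternatives, between 0.40 and 0.50.

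Because both ligands were counted in the same libraries, their ratio does not depend on the scaling of the libraries. HBEGF had 15.3, 11.9 and 9.28 counts per count of AREG in shControl, against 35.8, 69.1 and 104 in shSQLE. The groups had to separate in this ratio, since each gene separated them alone and in opposite directions, and the values are a description.

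The 250 bases before the annotated start of these 3 ligand genes are shown for the called member (AREG), its undetected neighbour (EREG) and the ligand with the highest level (HBEGF). Of the 10 members, 8 had an entry in the promoter table used. The sequences are from RefSeq (GRCh38.p14), 5′ to 3′ on the strand of the gene, at chr4:74444886-74445135 (AREG, + strand), chr4:74364895-74365144 (EREG, + strand) and chr5:140346604-140346853 (HBEGF, - strand). Capitals mark matches on either strand to the cyclic AMP response element (CRE) TGACGTCA, the AP-1 motif TGANTCA, the TATA motif TATAAA, the GC box GGGCGG or CCAAT.
AREG: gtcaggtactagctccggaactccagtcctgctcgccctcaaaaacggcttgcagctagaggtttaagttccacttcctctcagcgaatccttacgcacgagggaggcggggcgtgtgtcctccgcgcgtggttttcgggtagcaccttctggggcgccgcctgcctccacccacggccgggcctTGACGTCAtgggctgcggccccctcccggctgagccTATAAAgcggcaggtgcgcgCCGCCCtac
EREG: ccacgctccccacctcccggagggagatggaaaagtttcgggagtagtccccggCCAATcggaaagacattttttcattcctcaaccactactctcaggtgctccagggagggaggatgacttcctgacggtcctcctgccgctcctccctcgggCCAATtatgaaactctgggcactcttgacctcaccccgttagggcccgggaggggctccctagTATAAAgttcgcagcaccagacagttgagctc
HBEGF: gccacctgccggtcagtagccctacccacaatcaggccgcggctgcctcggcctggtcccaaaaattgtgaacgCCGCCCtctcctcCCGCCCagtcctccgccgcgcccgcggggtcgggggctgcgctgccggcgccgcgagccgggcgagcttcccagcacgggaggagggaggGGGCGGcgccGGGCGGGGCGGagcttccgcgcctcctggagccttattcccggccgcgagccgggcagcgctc

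AREG had a full CRE whose first base lies 65 bases before the start and a TATA motif at 29 bases, with a GC box on the opposite strand at 9 bases. EREG had a TATA motif at 32 bases and CCAAT at 95 and 196 bases, and no CRE of these letters. HBEGF had none of these, but 5 matches to the GC box, at 176, 163, 73, 63 and 58 bases, the last 2 of them overlapping. Its window had 76.4% G and C, against 65.2% for AREG and 58% for EREG. Of the 35116 RefSeq windows of the same length, 1.65% held the CRE, 6.57% the AP-1 motif, 10.7% the TATA motif, 42.6% the GC box and 32% CCAAT. These are matches of letters and not binding sites.

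Transforming growth factor alpha (TGFA, ENSG00000163235, chromosome 2, 70447284 to 70554193) had 103, 118 and 102 normalized counts in shControl against 98.9, 73.9 and 74.0 in shSQLE. The groups did not overlap, although shSQLE replicate 1 lay close to the 2 lowest controls. The log2 fold change was -0.39 (standard error 0.18, 95% confidence interval -0.80 to 0.03, adjusted p = 0.390), and no alternative called it. Neuregulin 1 (NRG1, ENSG00000157168), a ligand of ERBB3 and ERBB4, had 478, 533 and 633 normalized counts in shControl against 557, 528 and 579 in shSQLE. The shSQLE values lay within the range of the controls, with a log2 fold change of 0.02 (95% confidence interval -0.30 to 0.33) whose sign turned in 3 of 15 alternatives, among them the fit without shControl replicate 1 (-0.07).

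The receptor EGFR (ENSG00000146648, chromosome 7, 55019017 to 55211628, + strand, 28 exons) had the highest normalized count of the members. It was 1089, 1795 and 1827 in shControl against 1072, 969 and 1235 in shSQLE. Thus 2 of the controls lay above every shSQLE library, whereas shControl replicate 1 lay among them. The means were 1570.2 ± 417 against 1092 ± 134 (SD, n = 3 each, exact permutation p = 0.2). On the log2 scale the difference was -0.52 (standard error 0.21, 95% confidence interval -1.003 to -0.05, adjusted p = 0.288). Without shControl replicate 1 the log2 fold change was -0.73 (standard error 0.0986, adjusted p = 0.000222), and with the trend on GC content and transcript length taken out within each library it was -0.42 (adjusted p = 0.0272). The other fits that left out 1 library gave adjusted p values of 0.429 to 0.722. EGFR was below shControl in all 15 alternatives and called in 3 of them, those without shControl replicate 1 or with that trend taken out.

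ERBB2 (ENSG00000141736, chromosome 17, 39687914 to 39730426), the partner receptor, had 380, 282 and 303 normalized counts in shControl against 286, 291 and 234 in shSQLE. The groups overlapped, and here shControl replicate 1 was the highest library. The log2 fold change was -0.25 (standard error 0.16, 95% confidence interval -0.63 to 0.13, adjusted p = 0.575), and it was -0.11 without that library (adjusted p = 0.516). ERBB2 overlaps MIEN1 and PGAP3 on the opposite strand, and without knowledge of the strand setting their reads cannot be told apart. ERBB3 (ENSG00000065361, chromosome 12, 56076799 to 56103505), the neuregulin receptor that needs a partner to signal, had 7, 4 and 6 counts in shControl against 6, 7 and 3 in shSQLE, too few for the test, and the groups overlapped. ERBB3 shares exons with the gene ENSG00000257411 on the same strand, and NRG1 with ENSG00000286131. Both of these genes had 0 counts in every library. How reads in shared exons were counted is not given, so that reads of ERBB3 and NRG1 may be missing from their counts. The ratio of EGFR to ERBB2 counts was 2.87, 6.36 and 6.03 in shControl and 3.75, 3.33 and 5.27 in shSQLE, with overlapping groups.

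The sheddase ADAM17 (ENSG00000151694, chromosome 2, 9488486 to 9556732), which releases AREG, EREG, HBEGF and TGFA, had 346, 440 and 469 normalized counts in shControl against 351, 328 and 371 in shSQLE. The groups overlapped through shControl replicate 1. Its log2 fold change was -0.26 (standard error 0.15, 95% confidence interval -0.60 to 0.09, adjusted p = 0.506), and without shControl replicate 1 it was -0.38 (adjusted p = 0.0152), the only alternative that called it. ADAM17 overlaps IAH1 on the opposite strand. ADAM10 (ENSG00000137845, chromosome 15, 58588809 to 58749791), the main sheddase of EGF and betacellulin, had 661, 1205 and 1221 normalized counts in shControl against 964, 888 and 1147 in shSQLE. The shSQLE libraries lay between shControl replicate 1 and the other controls. The log2 fold change was -0.04 (95% confidence interval -0.59 to 0.50, adjusted p = 0.963), and its sign turned in 6 of 15 alternatives. Without shControl replicate 1 it was -0.28 (adjusted p = 0.0552).

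**Figure D2:**
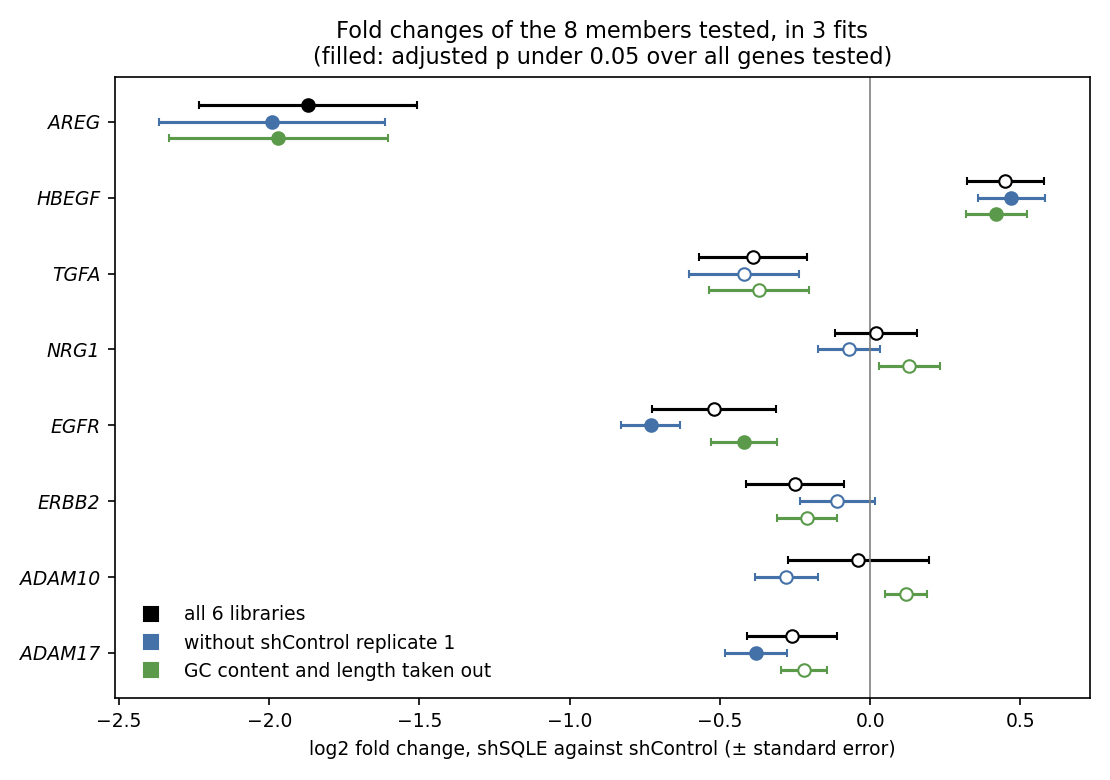
log2 fold change of shSQLE against shControl (horizontal axis, points with standard errors) for the 8 members tested, with all 6 libraries (black), without shControl replicate 1 (blue) and after removal of the trend on GC content and length (green). Filled points have an adjusted p under 0.05. AREG lies between -1.99 and -1.87 in the 3 fits, EGFR and HBEGF are called in the last 2 of them, and ADAM10 lies on either side of 0.

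The members differed in how far shControl replicate 1 stood from the other controls. Relative to the mean of shControl replicates 2 and 3, ADAM10 stood at -0.88, EGFR at -0.73, AREG at -0.47, ADAM17 at -0.39, NRG1 at -0.29 and TGFA at -0.10 on the log2 scale, while HBEGF stood at 0.07 and ERBB2 at 0.38. The lowest, ADAM10, had the least G and C in its transcript (37.5%) and the highest, ERBB2, the most (60.4%), but EGFR (47.8%) stood below members with less. Over all genes tested, a smooth trend on GC content and transcript length took up 53.1% of the variance of this library's deviations from the mean of the 6, 29.4% and 38.0% in the other controls and 4.56% to 18.6% in the shSQLE libraries. The trend alone would place ADAM10 at -0.69, ADAM17 at -0.38, ERBB2 at 0.30 and HBEGF at 0.17, but EGFR at -0.30 and AREG at 0.21, so that it followed some members and not others. The part of GC content and length in each member's difference between the groups was not tested beyond the fit that takes them out.

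**Figure D3:**
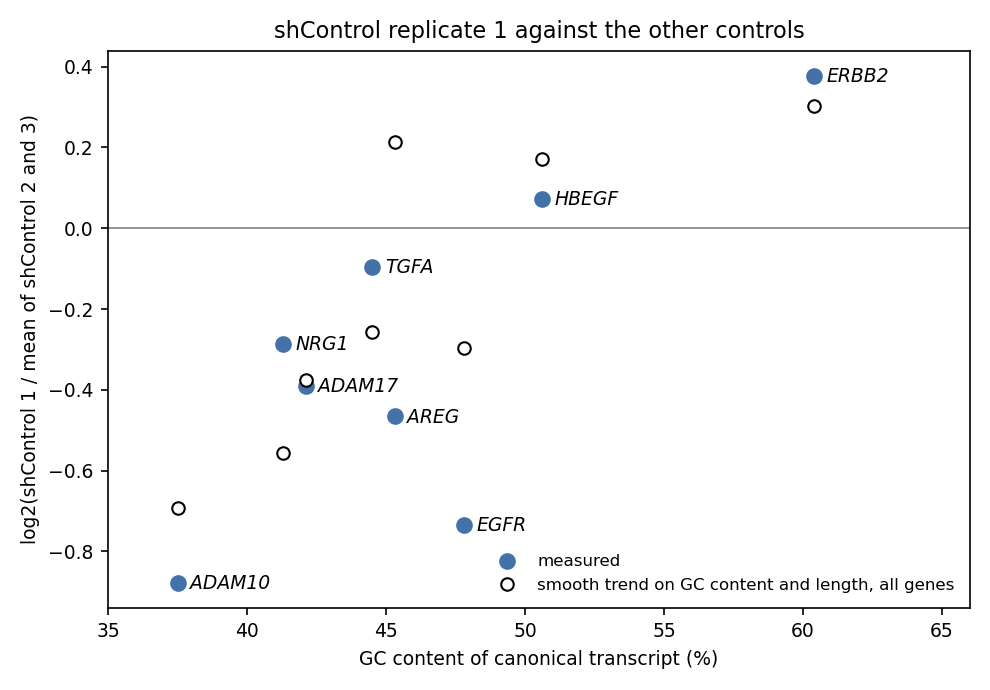
log2 ratio of shControl replicate 1 to the mean of the other controls (vertical axis) against GC content of the canonical transcript (horizontal axis, in percent) for the 8 members tested. Blue points are measured ratios and open points the smooth trend over all genes at each member's GC content and length. ADAM10 (-0.88) and ERBB2 (0.38) are the ends of the range, and EGFR and AREG lie furthest below their trend values.

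Levels of different genes were compared per kilobase of canonical transcript from CPM values. In shControl the order was EGFR (11.7 ± 3.12), HBEGF (11.3 ± 0.845), ADAM17 (7.06 ± 1.08), ADAM10 (6.83 ± 2.12), ERBB2 (5.23 ± 0.837), NRG1 (3.39 ± 0.485), TGFA (1.93 ± 0.158), AREG (1.83 ± 0.339), ERBB3 (0.0774 ± 0.0295) and EREG at 0 (SD, n = 3 each). The ranges of neighbours overlapped between EGFR and HBEGF, between ADAM17 and ADAM10, between ADAM10 and ERBB2, and between TGFA and AREG. In shSQLE, HBEGF came first with 15.4 ± 1.29, above EGFR with 8.17 ± 1.01, and their ranges did not overlap. The overlap of the pair in shControl came from replicate 1, where EGFR was at 8.15 and HBEGF at 11.7, while EGFR was at 13.4 and 13.7 and HBEGF at 11.9 and 10.3 in replicates 2 and 3. TGFA (1.48 ± 0.259) and AREG (0.496 ± 0.239), level with each other in shControl, did not overlap in shSQLE. With the union of all annotated exons as the length, HBEGF came before EGFR in shControl too (8.89 ± 0.667 against 7.30 ± 1.94, with overlapping ranges), and ADAM17 moved from the third to the fifth place.

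Of the rest of the family, only NRG2 was expressed enough to be tested. This neuregulin had 217, 128 and 118 normalized counts in shControl against 114, 96.6 and 92.5 in shSQLE, without overlap. Its log2 fold change was -0.61 (standard error 0.25, adjusted p = 0.317), and it moved to -0.29 without shControl replicate 1, the highest library, and to -0.55 (adjusted p = 0.0407) with GC content and length taken out. ERBB4, the receptor that binds neuregulins and some EGFR ligands, had 2 to 9 counts per library, NRG4 2 to 7, BTC (betacellulin) 1 to 5, EGF 0 to 2 and EPGN (epigen) 0 to 1. NRG3 had 0 counts in every library. The receptors with more than a few counts were thus EGFR and ERBB2. Reads of ERBB3 in shared exons may be missing, so its level may be higher than its counts show. The ligands of EGFR that passed the filter were HBEGF, TGFA and AREG, while NRG1 and NRG2 transcripts were present beside ERBB3 and ERBB4 counts of 9 or fewer.

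Genes around the family were followed in 6 lists with 94 genes, of which 86 were tested. Of these, 4 were lower and 1 higher past the adjusted p (2.84% and 0.369% of all genes tested), with 43 below and 43 above 0. At an unadjusted p under 0.05 there were 12 lower and 7 higher, where 14.7% of all genes passed either way. The list of other sheddases, iRhoms and sheddase partners had 21 genes tested and a median log2 fold change of -0.04, with 2 lower and 0 higher (5 lower and 2 higher at an unadjusted p under 0.05). Without shControl replicate 1, 5 were lower and 4 higher (18.3% and 15.6% of all genes tested in that fit). RHBDF2, which encodes iRhom2, the partner that carries ADAM17 to the cell surface, had 368, 310 and 312 normalized counts in shControl against 184, 221 and 182 in shSQLE. All shSQLE libraries lay below the controls, and RHBDF2 fell by 0.75 on the log2 scale (standard error 0.15, adjusted p = 0.0348). The call was lost with the replicate number as a block and without each library other than shControl replicate 1 (adjusted p of up to 0.214, without shSQLE replicate 1). The metalloprotease ADAM8 had 363 ± 82.6 normalized counts in shControl and 191 ± 21.1 in shSQLE (SD, n = 3 each). It fell by 0.93 on the log2 scale (standard error 0.19, adjusted p = 0.0416) and lost its call in the same 5 fits that left out 1 library. The metalloprotease inhibitor TIMP3, which blocks ADAM17, had 3490 ± 73.6 and 4298 ± 31.5 normalized counts without overlap, with a log2 fold change of 0.30 that missed the threshold (adjusted p = 0.150) and passed it without shControl replicate 1 (0.29, adjusted p = 0.0101).

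Of the inhibitors of ERBB receptors, 14 were tested, with a median of 0.03 and 0 called by edgeR or by DESeq2. At an unadjusted p under 0.05 there were 2, where 14.7% of all genes tested passed. CBLB, a ubiquitin ligase that acts on active receptors, was at -0.79 (adjusted p = 0.179), LRIG2, a membrane protein that modulates growth factor receptors, at 0.38 (adjusted p = 0.179) and SOCS5 at -0.37 (adjusted p = 0.547). Without shControl replicate 1 the list had 3 genes lower and 1 higher, where 18.3% and 15.6% of all genes tested were. All 3 named genes were called in that fit, CBLB at -1.0 (adjusted p = 0.00147), LRIG2 at 0.30 (adjusted p = 0.0192) and SOCS5 at -0.59 (adjusted p = 0.00205). In the adaptors and the RAS-ERK relay, all 18 genes were tested, with a median of 0.01 and 0 called by edgeR or by DESeq2. At an unadjusted p under 0.05 there was 1, where 14.7% of all genes tested passed. That gene was the adaptor SHC1, at -0.30 (standard error 0.13, adjusted p = 0.331). The exchange factor SOS1 was at -0.37 (adjusted p = 0.523). Without shControl replicate 1 the relay had 3 genes lower and 3 higher, where 18.3% and 15.6% of all genes tested were. SOS1 was at -0.58 in that fit (adjusted p = 0.00241).

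Among 16 genes that ERK signalling is known to induce or that feed back on it, the median was 0.04. Past the adjusted p, 1 was lower and 1 higher (2.84% and 0.369% of all genes tested). At an unadjusted p under 0.05 there were 3 lower and 4 higher, where 14.7% of all genes tested passed either way. Without shControl replicate 1 the adjusted p called 4 lower and 6 higher (18.3% and 15.6% of all genes tested in that fit). EPHA2, a receptor tyrosine kinase, had 2288, 2223 and 2154 normalized counts in shControl against 2988, 3009 and 3065 in shSQLE. It rose by 0.44 on the log2 scale (standard error 0.09, adjusted p = 0.0454). DUSP4, a phosphatase that inactivates ERK, had 1217, 1220 and 1293 normalized counts against 811, 902 and 915, and fell by 0.51 (standard error 0.11, adjusted p = 0.0478). SPRY2, an inhibitor of RAS-ERK signalling, was at -0.60 (adjusted p = 0.0666), with all its shSQLE libraries below the controls, and was called without shControl replicate 1 (-0.71, adjusted p = 0.00017). EPHA2 and DUSP4 thus moved in opposite directions, and both lost their call with library size only, with no filter, with the stricter filter, with the block and without each library other than shControl replicate 1. With the other scalings DUSP4 missed the threshold as well.

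Of 16 genes of receptor endocytosis and sorting, 1 was lower and 0 higher past the adjusted p (2.84% and 0.369% of all genes tested). The median was -0.08. At an unadjusted p under 0.05 there were 1 lower and 0 higher, where 14.7% of all genes tested passed either way. Without shControl replicate 1 the adjusted p called 8 lower and 2 higher (18.3% and 15.6% of all genes tested in that fit). The gene called with all 6 libraries was STAMBP, a deubiquitinase of endosomes that acts on sorted receptors, with 1176 ± 99.1 normalized counts in shControl and 802 ± 33.5 in shSQLE (SD, n = 3 each). It fell by 0.55 on the log2 scale (standard error 0.11, adjusted p = 0.0424). STAMBP also lost its call with library size only, with no filter, with the block and without each library other than shControl replicate 1. The recycling GTPase RAB11A was at -0.24 and the clathrin adaptor subunit AP2M1 at 0.24, with adjusted p values of 0.429 and 0.480, and without shControl replicate 1 they were called at -0.34 and 0.39 (adjusted p = 0.0062 and 0.00226).

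**Figure D4:**
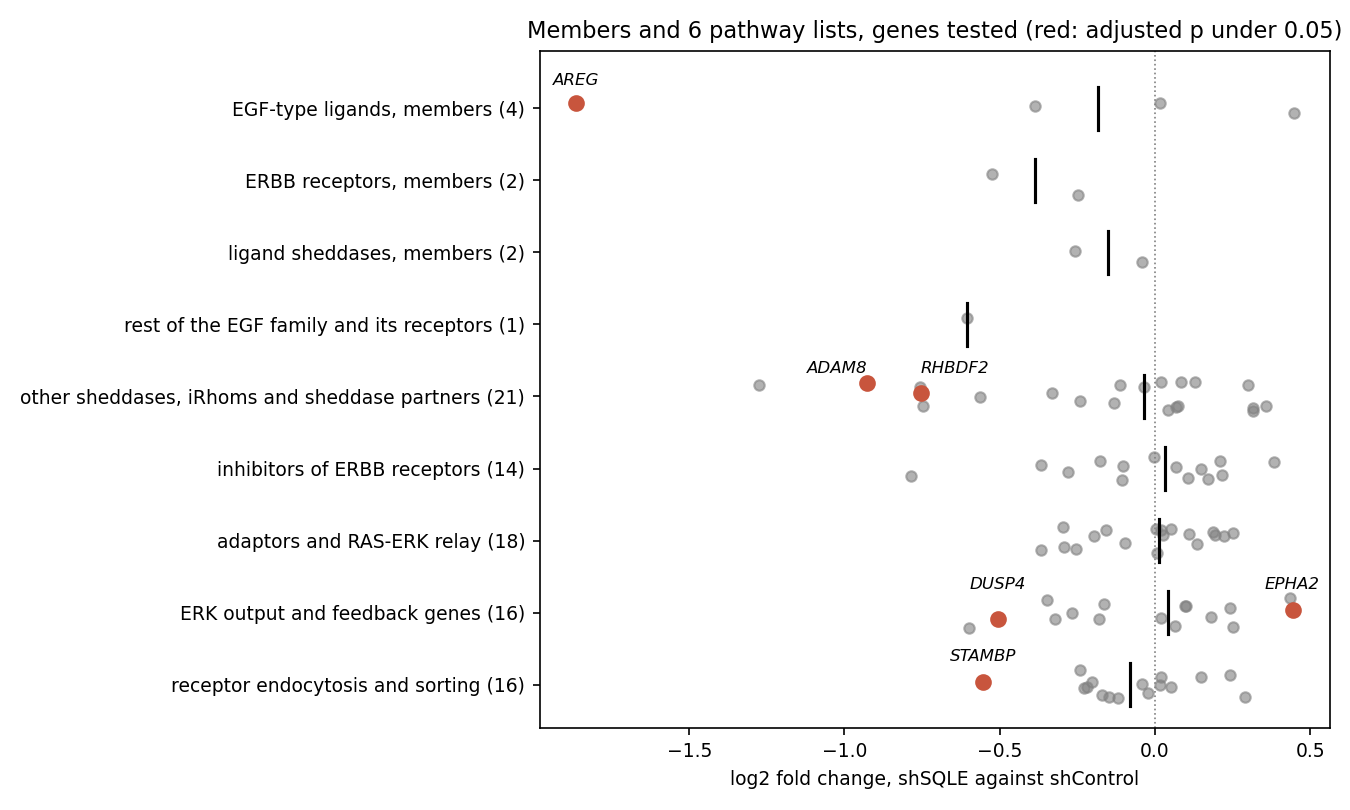
log2 fold change of shSQLE against shControl (horizontal axis) for each gene tested in the 3 groups of members and the 6 pathway lists, with the number tested in parentheses. Red points have an adjusted p under 0.05 and carry their names, grey points do not, and black lines are medians. The medians of the 5 longer lists lie between -0.08 and 0.04, and the 6 called genes lie on both sides of 0.

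The genes whose pattern over the 6 libraries was closest to that of AREG, HBEGF and EGFR were found by the root mean square difference of log2 CPM, each gene centred on its own mean. Of the 10821 genes compared with AREG, SLC16A6 was the closest, with a difference of 0.111, and had 142, 193 and 224 normalized counts in shControl against 76.4, 51.3 and 46.3 in shSQLE. APOL6 (0.220) and NFKBIZ (0.234) followed. The patterns closest to HBEGF, among 10820 genes, were those of AP4B1 (0.0462), ZNF589 (0.0583) and ZNF211 (0.0603). EGFR was closest to SLFN11 (0.0212), AKAP12 (0.0260) and USO1 (0.0354). SLFN11 had 533, 847 and 899 normalized counts in shControl against 516, 473 and 606 in shSQLE (adjusted p = 0.297). As in EGFR, shControl replicate 1 lay among the shSQLE libraries.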

How the data were processed

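The submitters' processing notes name fastp 0.20.0, STAR 2.7.9a, featureCounts 2.0 and the build hg38. The authors deposited whole-number counts for each gene, without normalization. The annotation release, the strand setting and the handling of reads that map to several genes are not given in the sources used here. Symbols, loci, exons and transcript lengths were taken from GENCODE v44, on the same build, and 19905 identifiers matched a symbol.

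Counts were analysed with R 4.3.3 and edgeR 4.0.16. Genes passing filterByExpr (12450) were scaled by TMM and tested by the quasi-likelihood test on condition alone, with p-values adjusted over all of them by Benjamini-Hochberg. Standard errors are the log2 fold change divided by the square root of F. The members and lists were chosen with earlier results of these data known. The genes named are SQLE, the members, the rest of the family, and per list those past the adjusted p or, if fewer than 3, those with the 3 smallest p, of which 1 gene is not reported here. DESeq2 1.42.0, other scalings and filters, a replicate block and leaving out each library were the alternatives. Smooth offsets on GC content and transcript length (mgcv 1.9.3) and exon-union lengths were chosen after seeing the data. The fit was tested on simulated counts drawn independently for each gene and library. These had no outlying library and no trend on GC content and length, so that the test does not cover those features of the data.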

Additional observations from a re-analysis of the deposited data

How the results depend on the processing

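SQLE stayed lower and called in all 15 alternatives. Of the members, 1 was lower past the adjusted p in the main edgeR fit. This was 0 to 3 when 1 library was left out, 0 with at least 10 counts in every library, a filter that removes AREG, and 2 with GC content and length taken out, with or without the replicate block. No member was higher in the main edgeR fit, with the other scalings or filters, or with the replicate block alone. The same held when a library other than shControl replicate 1 was left out. There was 1 without shControl replicate 1, 1 with DESeq2 and 1 with GC content and length taken out, with or without the block (range 0 to 1 over the fits without 1 library). Over all genes, 354 were lower and 46 higher. DESeq2 called 556 and 158, the fit with GC content and length taken out 1228 and 937, and the same with the replicate block 1154 and 830. Leaving out 1 library gave 101 to 2300 lower and 4 to 1964 higher, the largest numbers without shControl replicate 1. The cause of these shifts was not tested.

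Without 1 library, NRG1 ranged from -0.07 to 0.15 and ADAM10 from -0.28 to 0.11. The sign of NRG1 turned with library size only (-0.03), without shControl replicate 1 (-0.07) and without shControl replicate 2 (-0.0021). That of ADAM10 turned with the replicate block (0.00039), without shControl replicates 2 (0.09) and 3 (0.11), without shSQLE replicate 2 (0.04) and with GC content and length taken out, with or without the block (0.12 in both). The labels do not say whether the replicate numbers of the titles pair the libraries. Correlations of deviations from the group means were 0.138, -0.433 and 0.543 for numbers 1, 2 and 3, and not every library correlated best with its own number. With 3 libraries a group, these deviations depend on each other, so they cannot decide whether the libraries were paired. With the replicate block alone, 362 genes were lower and 34 higher, and AREG stayed called (log2 fold change -1.87, adjusted p = 0.0428). AREG rests on 5 to 36 counts per library.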
